A study of Mus musculus with 12 samples.

Results

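Forced expression of *FRAIL1* in mouse muscle was examined for its effect on 8 genes of cell cycle control and p53 feedback. Of these, 6 encode inhibitors of cyclin-dependent kinases (*Cdkn1a*, *Cdkn1b*, *Cdkn2a*, *Cdkn2b*, *Cdkn2c* and *Cdkn2d*). The other 2 are genes through which p53 feeds back on itself (*Mdm2* and *Ccng1*). The genes were chosen by symbol, and all 8 were found among the 27179 genes of the count table. *Mdm2* and *Ccng1* do not encode kinase inhibitors. *Cdkn1a* (p21) was 2.03-fold higher and *Cdkn2d* (p19Ink4d) 1.37-fold higher in *FRAIL1* muscles, in 6 of 6 numbered pairs of muscles each, while *Mdm2* measured 1.03 times the Control level. The study that made these samples had already reported *Cdkn1a* as increased.

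The samples were 12 tibialis anterior (TA) muscles of 6 young adult, wild-type male C57BL/6N mice. In each mouse the TA of 1 leg was electroporated with 10 μg of the empty plasmid pcDNA3 (Control) and that of the other leg with 10 μg of plasmid carrying full-length human *FRAIL1*, a long noncoding RNA, behind the cytomegalovirus promoter, and both TAs were taken at day 7. Control muscles therefore share the injection, the electric pulses and the plasmid backbone. Whole muscle was sequenced, so transfected and untransfected fibers and the other cells of the tissue are summed, and a change in the number of cells of a type cannot be told apart from a change in RNA per cell. Muscles are numbered 1 to 6 in each group, and muscles of the same number are called a pair here. The labels do not say that a number stands for a mouse. In pair 5 neither muscle had the other as its closest match in the other group. The level of *FRAIL1* itself, a human sequence counted in no mouse gene, was not analysed here.

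The 12 libraries held 44848322 to 60527385 counts. The myofiber markers *Ckm*, *Acta1*, *Myh4*, *Myh1*, *Tnnt3* and *Mb* summed to 117000 to 138000 CPM (read counts scaled to library size) in Control and 90300 to 123000 CPM in *FRAIL1* muscles, higher in 0 of 6 pairs. Only *Ckm* of these passed the test, as lower, and *Myh1* was higher on average (15400 and 17000 CPM). *FRAIL1* muscle 5 stood apart: its summed level was 1550 CPM for markers of regenerating fibers and 5140 CPM for markers of fibroblasts, against at most 659 and 2670 CPM in the other *FRAIL1* muscles. The groups were compared with the quasi-likelihood test of edgeR, and p-values were adjusted over all genes by the method of Benjamini and Hochberg. Of 15502 genes, 974 (6.28%) passed the threshold of 0.05, 687 (4.43%) higher and 287 (1.85%) lower in *FRAIL1* muscles. Higher genes were 70.5% of those called here, but with the number as a block 1159 were higher and 1027 lower, and the share was 53.7% in limma voom, 50.9% in DESeq2 with the block and between 47.4 and 86.3% over all alternatives. All 8 genes passed the expression filter. *Cdkn2a* did so through the *FRAIL1* group, with 6 *FRAIL1* and 2 Control muscles above the 0.201 CPM minimum. The filter used CPM of unscaled library totals. The CPM given for genes are also scaled with TMM factors, and by these *FRAIL1* muscle 6 was at 0.196 CPM for *Cdkn2a*.

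Cyclin-dependent kinases drive a cell from rest into DNA synthesis by phosphorylating the retinoblastoma protein, which frees E2F transcription factors. The Cip/Kip inhibitors p21 and p27 bind cyclin-kinase pairs broadly, whereas the Ink4 inhibitors p15, p16, p18 and p19 bind Cdk4 and Cdk6 and keep D-type cyclins away from them. p21 is a classical target of p53, and in muscle it also accompanies the exit of myoblasts from the cell cycle and is raised in denervated and immobilized fibers. *Mdm2* encodes the ubiquitin ligase that destroys p53, and *Ccng1* encodes cyclin G1, which activates Mdm2 through a phosphatase.

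The promoters are shown for the genes whose 250 bases before a RefSeq start site (build GRCm38.p6) held the p53 decamer, the 10-base unit that occurs in pairs in a p53 response element. It was searched by its consensus on both strands. The capitals mark it, and each stretch is written 5′ to 3′ on the strand of the gene.
*Cdkn1a*, chr17:29090819-29090968, plus strand: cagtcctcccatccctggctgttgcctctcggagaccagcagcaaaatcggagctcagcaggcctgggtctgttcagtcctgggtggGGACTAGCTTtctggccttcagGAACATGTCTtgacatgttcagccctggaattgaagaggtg
*Mdm2*, chr10:117710859-117711008, minus strand: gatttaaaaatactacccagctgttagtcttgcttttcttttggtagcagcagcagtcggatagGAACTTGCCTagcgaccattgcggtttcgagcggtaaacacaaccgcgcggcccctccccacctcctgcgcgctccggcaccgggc
*Ccng1*, chr11:40755387-40755536, minus strand: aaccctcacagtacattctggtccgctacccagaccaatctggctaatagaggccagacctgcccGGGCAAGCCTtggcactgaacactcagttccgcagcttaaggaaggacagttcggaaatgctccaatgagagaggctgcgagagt
*Cdkn2d*, chr9:21291292-21291321, minus strand: ggcctggggcGGGCTTGCCTcgcccactag
The *Cdkn1a* stretch lies before the more distal of its 2 RefSeq start sites and holds the decamer at 73 and 51 bases before the start. Only exact matches were marked, so a decamer with a mismatch stays in lower case. The marked decamers are not shown to be the parts of a response element. In *Mdm2*, *Ccng1* and *Cdkn2d* the decamer begins 186, 185 and 102 bases before the start, and in *Cdkn2d* it overlaps a GGGCGG box. GENCODE places 198 of the 250 bases before the *Cdkn2d* start, the printed stretch among them, within an annotated exon of *Cdkn2d*, so this stretch is transcribed sequence by that annotation. A decamer was found in 4 of the 8 genes and in 8.2% of the 27025 genes with a promoter in the table. Since p53 targets were among the genes chosen, this share is a description of the choice. The decamer was absent from these windows of *Cdkn1b*, *Cdkn2a*, *Cdkn2b* and *Cdkn2c*. A match says nothing about binding in these muscles, and of the genes with a match *Cdkn1a* and *Cdkn2d* passed the test between groups while *Mdm2* and *Ccng1* did not.

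The proximal *Cdkn1a* start site carried the GC box GGGCGG, a binding motif of Sp1, at 104 and 46 bases before the start and no decamer. GGGCGG was found in 32.7% of the 32851 promoters in the table and, among the genes described here, also in *Cdkn1b*, *Cdkn2a*, *Cdkn2c*, *Cdkn2d* and *Mdm2*. By GENCODE, all 250 bases of the *Cdkn2c* window that held it are exonic in *Cdkn2c*, and those of the proximal *Cdkn1a* window are exonic in the antisense model AC167363.2. Of the other motifs searched on both strands, TATAAA (12.4% of all promoters) was in none of the 8 genes, CCAAT (33.8%) was in *Cdkn1b*, *Cdkn2d*, *Mdm2* and *Ccng1*, the E-box CANNTG (66.2%) was in *Cdkn1a*, *Cdkn2b* and *Mdm2*, its form CAGCTG (13%) was in *Mdm2*, and the E2F motif TTTNGCGC (1.13%) was in *Cdkn2a*, before the downstream start, that of the p16 first exon.

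*Cdkn1a* (Gene ID 12575; chromosome 17 of GRCm38, 29090976 to 29100727) encodes p21, which stops Cdk2 and binds the replication clamp. Control muscles measured between 29.1 and 64.8 CPM (median 43.1) and *FRAIL1* muscles between 72.7 and 132 CPM (median 77.9). The groups did not overlap, as was true of 3.12% of all genes in this direction and 4.88% in either. *FRAIL1* muscle 2 was highest, at 132 CPM, and muscle 5 followed at 99.7 CPM, while the other *FRAIL1* muscles lay close together between 72.7 and 78.5 CPM. Mean levels were 43.8 ± 12.6 CPM in Control and 89.0 ± 23.3 CPM in *FRAIL1* muscles (SD, n = 6 each). The log2 fold change was 1.02 (standard error 0.202, 95% interval 0.58 to 1.46, adjusted p = 0.0177, edgeR). Within pairs the ratio of the *FRAIL1* to the Control muscle varied widely, from 1.21 in pair 3 to 3.43 in pair 2. Pair 3 had the Control muscle with the most *Cdkn1a*, and pair 6, whose Control muscle had the least, showed a ratio of 2.53. An antisense transcript model of unverified status, AC167363.2, covers 7.68% of the exonic bases of *Cdkn1a*. The call held with any 1 muscle left out (highest adjusted p = 0.0417, edgeR, without Control muscle 2) and with the number as a block (0.0287), but was lost without pair 5, where the log2 fold change was 0.93 and the adjusted p-value 0.0644, or 0.109 with the block.

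*Cdkn1b* (Gene ID 12576; chromosome 6, 134920401 to 134925513) encodes p27, the other Cip/Kip member of the set, which holds resting cells out of the cycle. It was the steadiest of the 6 inhibitors within *FRAIL1* muscles, with a coefficient of variation of 4.31%. Control muscles lay between 48.6 and 62.7 CPM (median 55.3) and *FRAIL1* muscles between 48.0 and 54.1 CPM (median 51.9), so the *FRAIL1* range lay almost wholly inside the Control range. The log2 fold change was -0.11 (95% interval -0.24 to 0.03, adjusted p = 0.276, edgeR), and 5 of 6 pairs had less in the *FRAIL1* muscle. The interval leaves out a rise of the size seen for *Cdkn1a*.

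**Figure D1:**
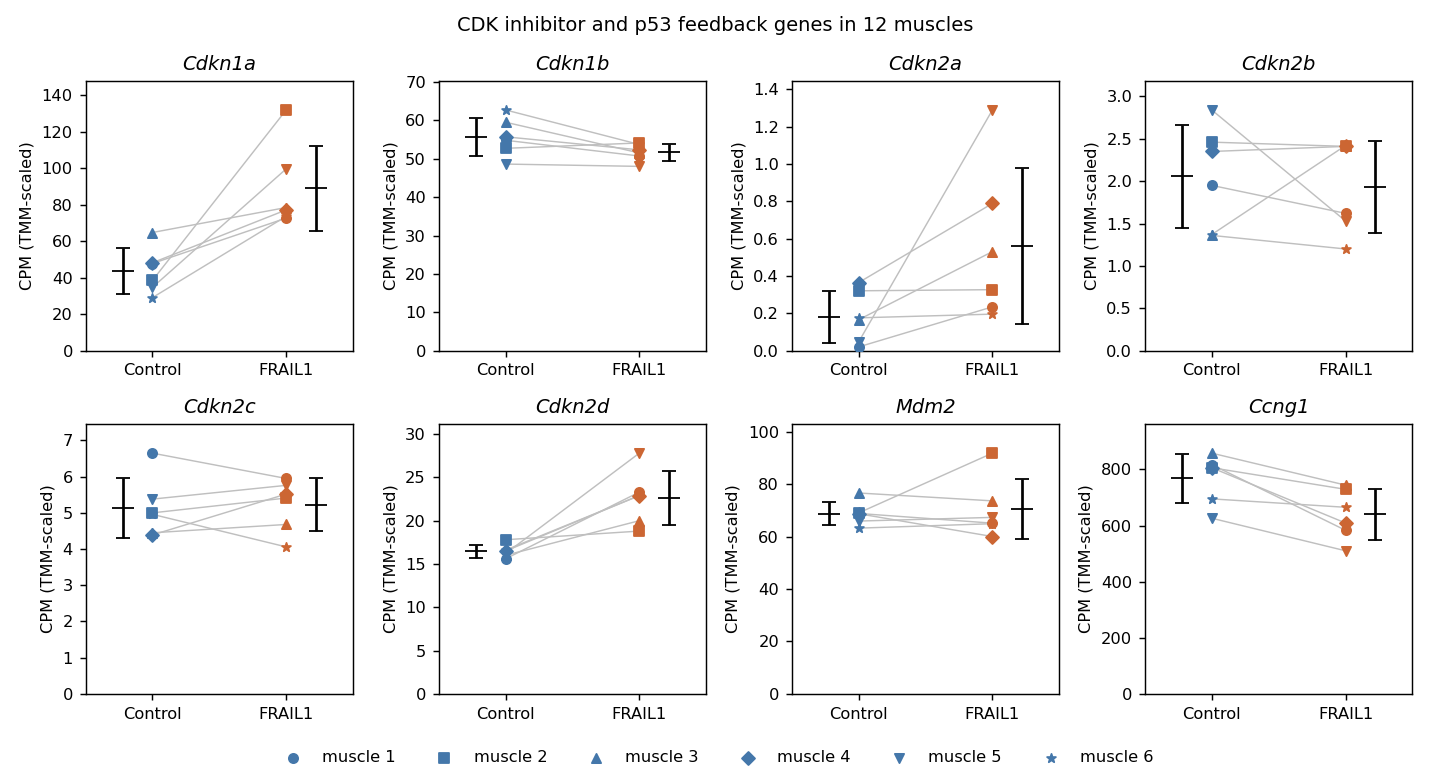
Normalised read count (CPM, scaled with TMM factors, axes from 0) of the 8 genes in each of the 12 muscles, with symbols for the muscle number, grey lines joining the muscles of 1 number, and the mean ± SD (n = 6) beside each group. The *FRAIL1* muscles of *Cdkn1a* (72.7 to 132 CPM) and *Cdkn2d* (18.8 to 27.8 CPM) all lie above the Control muscles, and those of the other 6 genes overlap them.

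Among the Ink4 genes, *Cdkn2d* (Gene ID 12581; chromosome 9, 21288410 to 21291407) was the one past the threshold. It encodes p19Ink4d, an Ink4 inhibitor found in many resting and differentiated tissues, and is not the Arf protein also called p19. Control muscles were tightly grouped, between 15.6 and 17.8 CPM (median 16.4), and *FRAIL1* muscles lay between 18.8 and 27.8 CPM (median 22.9). The groups did not overlap, although *FRAIL1* muscle 2, which had the most *Cdkn1a*, had the least *Cdkn2d* of its group. The means were 16.4 ± 0.746 CPM and 22.6 ± 3.13 CPM (SD, n = 6 each). The log2 fold change was 0.46 (standard error 0.0824, 95% interval 0.28 to 0.63, adjusted p = 0.00891, edgeR). Ratios within pairs ran from 1.06 in pair 2 to 1.71 in pair 5. The adjusted p-value was under 0.05 in all 24 alternative settings tried, with the highest, 0.0278, without Control muscle 1. Without *FRAIL1* muscle 5 the log2 fold change was 0.39.

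The order of pairs was not the same for the 2 genes that rose. Pair 2 had the largest *Cdkn1a* ratio (3.43) and the smallest *Cdkn2d* ratio (1.06), whereas pair 5 was high for both (2.87 and 1.71). Of the 8 genes 2 (25.0%) passed, both higher, against 6.28% of all genes tested, and 4 had an unadjusted p-value under 0.05, as did 27.7% of all genes. The sign of the log2 fold change was positive for 5 of the 8, against 51.6% of all genes, so the set did not share a direction.

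*Cdkn2a* (Gene ID 12578; chromosome 4, 89274471 to 89294653) encodes the senescence-linked inhibitor p16Ink4a and, from another first exon, p19Arf, which blocks Mdm2. The counts are per gene and do not separate the transcripts. The message was near the lower end of detection: Control muscles 1 to 6 held 1, 18, 8, 18, 2 and 8 counts, and *FRAIL1* muscles 1 to 6 held 12, 19, 31, 39, 69 and 10. The groups overlapped, at 0.0203 to 0.365 CPM (median 0.171) and 0.196 to 1.29 CPM (median 0.429), although the *FRAIL1* muscle was higher in 6 of 6 pairs. Pairs 2 and 6 were close to ties, at 19 against 18 and 10 against 8 counts. The gene entered the test through the *FRAIL1* group, with 6 *FRAIL1* and 2 Control muscles above the filter minimum. Its direction is therefore not independent of the filter. The fitted log2 fold change of 1.58 was the largest of the 8 genes and the least precise (standard error 0.572, 95% interval 0.36 to 2.80, adjusted p = 0.0961, edgeR). Without *FRAIL1* muscle 5 it was 1.15 (adjusted p = 0.222). Of 22 alternatives it passed in 1, the DESeq2 Wald test, at an adjusted p of 0.0462.

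*Cdkn2b* and *Cdkn2c* encode p15Ink4b, known as a target of TGF-β signalling, and p18Ink4c. *Cdkn2b* (Gene ID 12579; chromosome 4, 89306299 to 89311039), the neighbor of *Cdkn2a*, measured 1.36 to 2.84 CPM (median 2.15) in Control and 1.20 to 2.42 CPM (median 2.01) in *FRAIL1* muscles. *Cdkn2c* (Gene ID 12580; chromosome 4, 109660876 to 109667189) measured 4.39 to 6.65 CPM (median 4.98) and 4.06 to 5.95 CPM (median 5.46). Both pairs of groups overlapped nearly completely. The log2 fold changes were -0.09 (95% interval -0.57 to 0.40, adjusted p = 0.831) for *Cdkn2b* and 0.03 (95% interval -0.24 to 0.29, adjusted p = 0.920) for *Cdkn2c* (edgeR), and their signs changed when single muscles were left out. The interval of *Cdkn2b* is wide on both sides of 0.

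**Figure D2:**
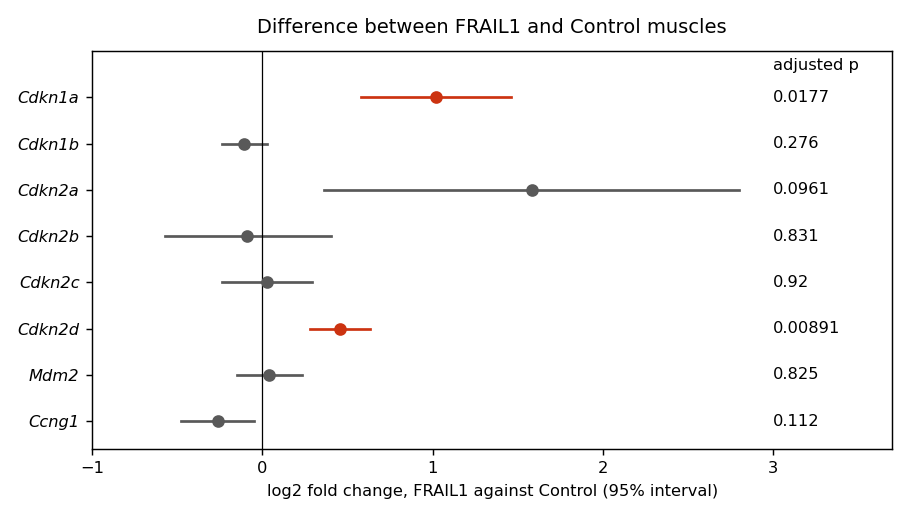
Log2 fold change of the 8 genes, *FRAIL1* against Control (point), with its 95% interval (line) and adjusted p-value from edgeR, in red where under 0.05. *Cdkn1a* (1.02) and *Cdkn2d* (0.46) are in red, and the wide line of *Cdkn2a* runs from 0.36 to 2.80.

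Neither of the p53 feedback genes passed the threshold. *Mdm2* (Gene ID 17246; chromosome 10, 117688875 to 117710758) lay between 63.2 and 76.6 CPM (median 68.8) in Control and between 60.0 and 91.8 CPM (median 66.2) in *FRAIL1* muscles. *FRAIL1* muscle 2, the muscle with the most *Cdkn1a*, was the one well above the Control range, and the others lay in or near it. The log2 fold change was 0.04 (95% interval -0.15 to 0.23, adjusted p = 0.825, edgeR), with 3 of 6 pairs higher. Without *FRAIL1* muscle 2 it was -0.06.

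*Ccng1* (Gene ID 12450; chromosome 11, 40748552 to 40755311) was far more abundant than the other 7 genes and had less message in the *FRAIL1* muscle of 6 of 6 pairs. Control muscles lay between 626 and 858 CPM (median 806) and *FRAIL1* muscles between 510 and 744 CPM (median 637), ranges that overlap because Control muscles 5 and 6 were low (626 and 695 CPM). Mean levels were 768 ± 88.0 and 640 ± 90.0 CPM (SD, n = 6 each). The log2 fold change was -0.26 (standard error 0.101, 95% interval -0.48 to -0.05, adjusted p = 0.112, edgeR), not past the threshold. A fit blocked by number, which compares the muscles of each pair, gave a log2 fold change of -0.27 and an adjusted p-value of 0.0312, and 14.1% of all genes passed in it. Ratios within pairs ran from 0.713 in pair 1 to 0.956 in pair 6.

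Divided by exonic length, *Ccng1* was at 219 ± 25.1 CPM per kb in Control muscles, and *Mdm2* at 13.5 ± 0.880 (SD, n = 6 each). Among the 6 inhibitors, *Cdkn1a* (12.3 ± 3.56), *Cdkn1b* (12.2 ± 1.09) and *Cdkn2d* (10.4 ± 0.474 CPM per kb) were close together in Control muscles, and their order differed from muscle to muscle. *Cdkn2c* and *Cdkn2b* followed at 1.91 ± 0.309 and 1.48 ± 0.437 CPM per kb, also in changing order, and *Cdkn2a* was last in all 12 muscles at 0.156 ± 0.119 CPM per kb in Control and 0.479 ± 0.358 in *FRAIL1* muscles. In all 6 *FRAIL1* muscles the order was *Cdkn1a* (25.0 ± 6.56), *Cdkn2d* (14.4 ± 1.99), *Cdkn1b* (11.4 ± 0.490), *Cdkn2c* (1.95 ± 0.268) and *Cdkn2b* (1.39 ± 0.392 CPM per kb).

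The summed level of the 6 inhibitors was 38.6 ± 3.43 CPM per kb in Control and 54.6 ± 6.57 in *FRAIL1* muscles, with ranges of 34.8 to 44.2 and 49.6 to 65.0. *Cdkn1a* made up 31.6 ± 6.28% of it in Control and 45.3 ± 6.14% in *FRAIL1* muscles (SD, n = 6), *Cdkn1b* 31.9 ± 3.44% and 21.1 ± 2.58%, and *Cdkn2d* 27.3 ± 2.92% and 26.6 ± 4.34%. The *Cdkn1a* share ran from 23.1 to 41.2% in Control and from 40.9 to 57.2% in *FRAIL1* muscles, ranges that overlap slightly, and no test was made of the shares. Length here is that of all annotated exons of a gene. *Cdkn1c* (p57), a Cip/Kip inhibitor outside the 6, is not in the sum or the shares. It measured 18.9 ± 1.96 CPM per kb in Control and 36.1 ± 23.9 in *FRAIL1* muscles, above the mean of *Cdkn1a* in both groups. An antisense gene covers 30.7% of its exonic bases.

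**Figure D3:**
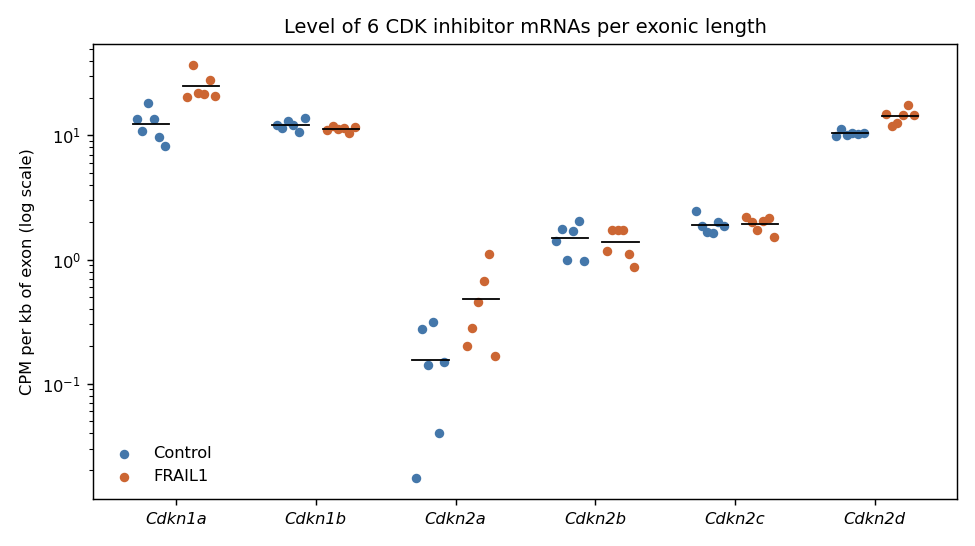
Level of the 6 inhibitor mRNAs per exonic length (CPM per kb, log axis) in Control (blue) and *FRAIL1* (orange) muscles, a point for each muscle and a line at the mean. *Cdkn1a*, *Cdkn1b* and *Cdkn2d* lie well above the other 3 in every muscle, and *Cdkn2a* lies lowest.

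Genes whose profile over the 12 muscles was most like those of the genes that rose were found by the root mean square difference of standardized log2 CPM, in SD units. For *Cdkn1a* they were *Tnfrsf23* (difference 0.171, log2 fold change 0.98), *Cpne2* (0.332, log2 fold change 1.21) and *Cpd* (0.345, log2 fold change 0.37), against a median of 1.40 over all genes. *Tnfrsf23* encodes a decoy receptor of the TNF receptor family, *Cpne2* a calcium-dependent phospholipid-binding protein, and *Cpd* a carboxypeptidase of the secretory pathway. For *Cdkn2d* they were *Myl4* (0.170, log2 fold change 1.87), the embryonic myosin light chain, *Tnnt1* (0.172, log2 fold change 1.77), the slow skeletal troponin T, and *Axl* (0.191, log2 fold change 0.64), a receptor tyrosine kinase. These 6 genes were taken for likeness to genes that differ between the groups, so their own difference is no further evidence.

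Markers of regenerating and immature fibers, like *Cdkn1a* and *Cdkn2d*, were higher in *FRAIL1* muscles. Whether they varied together from muscle to muscle was not tested. Of *Myh3*, *Myh8*, *Myod1*, *Myog*, *Mymk* and *Mymx*, 5 of 6 passed as higher in *FRAIL1* muscles, against 4.43% of all genes. *Myod1* was also higher on average (28.0 and 36.0 CPM) but did not pass (adjusted p = 0.0725, edgeR). The sum of all 6 was 164 to 215 CPM in Control and 327 to 1550 CPM in *FRAIL1* muscles. Myogenin (*Myog*), which drives terminal differentiation of myoblasts, rose from 11.8 ± 2.01 to 32.4 ± 16.1 CPM (SD, n = 6 each). None of 9 macrophage and none of 7 fibroblast markers passed. Their sums were still higher in 6 of 6 pairs, at 206 to 331 against 261 to 699 CPM and at 1250 to 2300 against 2370 to 5140 CPM. The fibroblast sum was mostly *Col1a1* (449 ± 96.6 and 927 ± 524 CPM) and *Col3a1* (731 ± 161 and 1290 ± 611 CPM). *Dcn* was level (184 and 186 CPM), *Gsn* was lower on average (462 and 402 CPM), and *Pdgfra*, *Lum* and *Dpt* were higher on average. None of 5 satellite cell markers passed, with sums of 38.4 to 45.2 and 43.1 to 55.8 CPM, also higher in 6 of 6 pairs. The endothelial sum was 385 to 455 CPM in Control and 309 to 403 CPM in *FRAIL1* muscles, with *Tek* of 5 markers lower. No Schwann cell, smooth muscle or neutrophil marker passed, and all 4 neutrophil markers averaged under 1 CPM. What these cells contribute to the inhibitor levels was not tested.

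The surrounding pathways were described with 10 lists of 163 genes, 161 of them tested, of which 15 passed as higher and 10 as lower (15.5%, against 6.28% of all genes). Of 35 tested p53 targets other than those above, *Psrc1* rose (0.292 ± 0.120 to 0.898 ± 0.530 CPM, log2 fold change 1.60) and *Tigar*, which lowers glycolytic flux, fell (145 ± 6.26 to 104 ± 23.0 CPM, log2 fold change -0.48). The other 33 did not pass in this fit, and the median log2 fold change of the list was 0.11, against 0.01 for all genes. The share called was 5.71%, against 6.28% of all genes. With the number as a block 4 were higher and 4 lower (22.9%, against 14.1% of all genes), the additional genes being *Cd82*, *Fdxr* and *Pmaip1* as higher (adjusted p = 0.0118, 0.0137 and 0.0220, edgeR) and *Aen*, *Ei24* and *Polk* as lower (0.0331, 0.0361 and 0.0174).

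*Trp53* itself, the gene of p53, measured 18.7 ± 1.37 CPM in Control and 22.2 ± 3.20 CPM in *FRAIL1* muscles (SD, n = 6 each), a log2 fold change of 0.24 (adjusted p = 0.0904, edgeR) that passed once numbers were blocked (0.0316). It was higher in 6 of 6 pairs. *Mdm4*, the partner of *Mdm2*, was at 8.27 ± 0.573 and 8.18 ± 1.20 CPM (adjusted p = 0.940, edgeR). Of the other 13 regulators of p53, *Trp53bp1*, a DNA damage response protein, rose (log2 fold change 0.28), and *Cop1*, a ubiquitin ligase for p53, and *Ep300*, a histone acetyltransferase, fell (-0.30 and -0.27).

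Among 18 cyclins, kinases and their activators, *Ccnd3* (27.5 ± 1.15 to 36.3 ± 8.24 CPM, log2 fold change 0.40), the D-type cyclin of differentiating muscle, and *Cdk1* (2.04 ± 0.326 to 3.68 ± 1.44 CPM, log2 fold change 0.85), the mitotic kinase, rose, and none fell. The share called was 11.1%, against 6.28% of all genes. In the retinoblastoma and E2F family 1 of 16 genes rose and 1 fell (12.5%). *E2f2*, an activating E2F, went from 8.47 ± 0.414 to 20.7 ± 5.76 CPM (log2 fold change 1.29, adjusted p = 4.7e-04, edgeR), and *E2f6*, a repressing E2F, from 164 ± 6.48 to 118 ± 21.3 CPM (log2 fold change -0.47, adjusted p = 0.0200, edgeR). Of 20 proliferation genes *Rrm2*, *Kif11* and *Mcm6* rose (0.73, 0.71 and 0.45 on the log2 scale) and *Aurka* fell (-0.41). The median of that list was 0.38, and 18 of its 20 genes had a log2 fold change above 0.

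Of 16 genes that control the turnover or FoxO-driven transcription of p27 and p21, *Foxo4*, a FoxO transcription factor (211 ± 6.49 to 151 ± 31.8 CPM, log2 fold change -0.48), and *Fbxo31* (150 to 186 CPM in Control and 91.0 to 151 CPM in *FRAIL1* muscles, -0.36), a ubiquitin ligase subunit, fell. Of 14 regulators of the locus that holds *Cdkn2a* and *Cdkn2b*, 1 passed: *Bmi1*, the Polycomb protein known to repress that locus, fell from 45.1 ± 4.71 to 34.9 ± 3.65 CPM (SD, n = 6 each; log2 fold change -0.37, adjusted p = 0.0198, edgeR). The shares called were 12.5% of the turnover list and 7.14% of the locus list, against 6.28% of all genes. The third Cip/Kip gene, the imprinted *Cdkn1c* (p57), measured 33.1 to 42.9 CPM in Control and 45.7 to 172 CPM in *FRAIL1* muscles, with a log2 fold change of 0.94 and an adjusted p of 0.0811 by edgeR. *FRAIL1* muscle 5 was at 172 CPM, and without it *Cdkn1c* passed, at a log2 fold change of 0.48 and an adjusted p of 0.00728. None of the 5 genes on its list passed in the edgeR test used for the calls here, and *Cdkn1c* passed in 6 of 24 alternative settings. An antisense gene covers 30.7% of the exonic bases of *Cdkn1c*.

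p21 has been placed in an atrophy pathway with *Atf4*, *Gadd45a* and *Smox*. *Atf4*, a stress transcription factor, fell, from 133 to 162 CPM in Control to 96.2 to 125 CPM in *FRAIL1* muscles (log2 fold change -0.33, adjusted p = 0.0203, edgeR), opposite in direction to *Cdkn1a*. *Gadd45a* measured 32.4 ± 6.43 and 49.7 ± 27.8 CPM, higher in 3 of 6 pairs (adjusted p = 0.188, edgeR). *Smox*, spermine oxidase, measured 649 ± 147 and 342 ± 154 CPM, lower in 6 of 6 pairs (adjusted p = 0.0791, edgeR). *Map3k4*, the kinase that Gadd45a activates, fell (-0.35) and *Asns*, asparagine synthetase, rose (0.85). The list held 8 genes, of which 1 passed as higher and 2 as lower (37.5%). In the list of 17 senescence-associated genes, 6 of 16 tested rose and none fell (37.5% called, against 6.28% of all genes). They were *Cd55* (0.50), *Mmp3* (1.13), *Tgfb1* (0.68) and *Runx1* (0.89 on the log2 scale), with *Glb1* and *Timp1* besides, and *Runx1* did not pass with the number as a block (adjusted p = 0.0678, edgeR) or without *FRAIL1* muscle 5 (0.0503). The study on these muscles named *Cd55*, *Runx1* and *Igfbp7* of the list as increased, together with *Cdkn1a*, and reported *Smox* mRNA as reduced. These genes are therefore no independent evidence of the list's direction or of the rise in *Cdkn1a*. *Igfbp7* did not pass here (log2 fold change 0.34, adjusted p = 0.162, edgeR). The study tested with DESeq2, so its calls and these come from different tests. Here 2232 genes passed in DESeq2's Wald test, against 974 in edgeR.

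**Figure D4:**
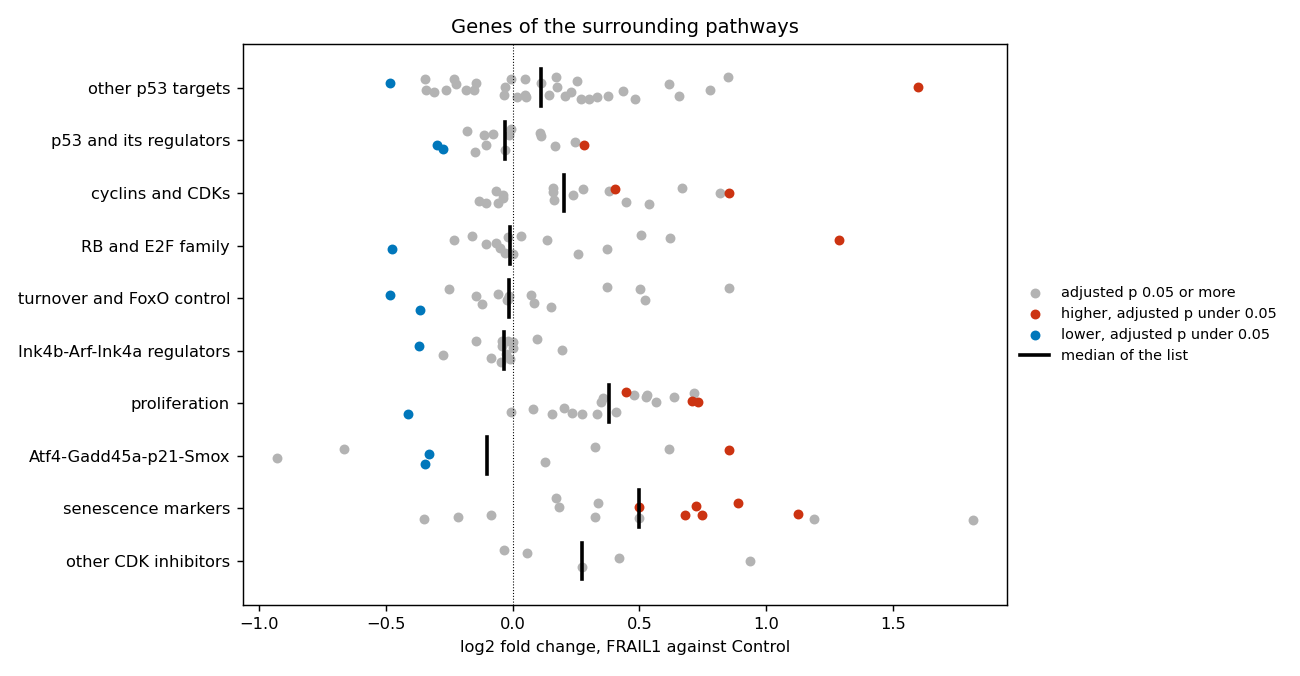
Log2 fold change, *FRAIL1* against Control, of the tested genes of 10 pathway lists (a point for each gene, red or blue where higher or lower with an adjusted p-value under 0.05, grey otherwise), with a black line at each list's median. The medians of the proliferation (0.38) and senescence (0.50) lists lie to the right of 0, and that of the p53 regulators (-0.03) close to it.

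Of the 25 pathway genes called, 9 (*Atf4*, *Aurka*, *Cd55*, *E2f2*, *E2f6*, *Mmp3*, *Rrm2*, *Tgfb1* and *Trp53bp1*) passed in every alternative setting, and 16 failed to in at least 1. With the number as a block 14.1% of all genes passed. The calls in that fit were 8 higher and 1 lower for proliferation (45% of the list) and 4 higher for cyclins and kinases (22.2%). The retinoblastoma and E2F family had 2 higher and 2 lower (25%), and p53 and its regulators 2 higher and 3 lower (33.3%). Turnover genes had 1 higher and 2 lower (18.8%), and regulators of the *Cdkn2a* locus 2 lower (14.3%, close to the share of all genes). Senescence-associated genes had 6 higher (37.5%), and the atrophy list of *Atf4* and *Smox* 1 higher and 3 lower (50%). None passed on the list of *Cdkn1c*. The number called in all was 43 without *FRAIL1* muscle 3 and 11 without *FRAIL1* muscle 1, Control muscle 2 or Control muscle 6.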

How the data were processed

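Poly(A) RNA of 12 TA muscles was sequenced as paired-end reads. According to the methods and the submitters' processing notes, the authors trimmed reads with Trimmomatic, mapped them to mm10 with STAR 2.7.8a and counted reads mapping uniquely to annotated genes with featureCounts 2.0.1, and they deposited raw counts per NCBI Gene ID without normalization. For differential expression the study used DESeq2. The strand setting of counting is not given in the sources used here.

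Gene IDs were paired with symbols of the RefSeq GRCm38.p6 table (25275 of 27179 matched, the others with 0.28% of counts). Positions, exons and lengths came from GENCODE M21 (GRCm38, the same build). Genes were filtered with filterByExpr (minimum count 10), scaled with TMM and compared in R 4.3.3 with edgeR 4.0.16 (quasi-likelihood, robust), with no term for the number, with Benjamini-Hochberg adjustment over 15502 genes and a threshold of 0.05. Standard errors are the log2 fold change divided by the root of F. The method was tested on simulated counts. Alternatives used DESeq2 1.42.0 (size factors, and the Wald test with and without the block), upper-quartile scaling, TMM factors that ignored mitochondrial and the 20 most counted genes, all genes unfiltered, a minimum of 10 counts per muscle, limma 3.58.1 voom with quality weights, a fit that was not robust, the number as a block, each muscle left out, and both muscles numbered 5 left out.

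The genes, lists and alternatives were chosen with earlier results of these data known. The naming rule took the 8 genes, up to 4 called genes of each list by adjusted p, *Cdkn1c*, *Trp53* and *Mdm4*, and for each called gene of the 8 the 3 genes of most similar profile. *Glb1*, *Timp1*, *Gadd45a*, *Smox*, *Igfbp7*, 6 p53 targets that passed with the block, and the cell type markers were named besides. Lymphocyte markers are not reported here. BLAST 2.17.0 found no transcript of another gene with 98% identity over 100 bases, apart from the model overlapping *Cdkn1a*. No library was a copy of another (chi-square per degree of freedom of 14.5 or more between libraries of a group).

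Each mouse gave a muscle to each group, and the numbers 1 to 6 are shared by the groups, but the labels do not state that a number is a mouse. Over 15502 genes, deviations from the group mean correlated at 0.254, 0.162, 0.282, 0.263, 0.0547 and 0.185 for numbers 1 to 6, against a mean of -0.0400 between different numbers, and for 5 of the 6 numbers each muscle correlated best with its namesake, while for number 5 neither did. Values within pairs rest on the numbers. Depth limits genes of few counts such as *Cdkn2a*. P-values measure the spread between muscles.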

Additional observations from a re-analysis of the deposited data

Results flagged for a closer look

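Each group of 6 muscles was screened for a muscle whose gap to the next was a large part of the group's range (Dixon's 95% critical value), for 42 genes named in the report. Chance flags about 1 in 20 groups. None of the 8 inhibitor and feedback genes had such a muscle. Of the 84 groups 14 did, 7 of them through *FRAIL1* muscle 5. That muscle was far from the rest for *Cdkn1c* (172 CPM, next 62.9), *E2f2* (32.0, next 21.2), *Ccnd3* (52.5, next 35.9), *Cdk1* (6.49, next 3.81), *Kif11* (9.01, next 5.32) and *Cd55* (85.1, next 65.1), and was low for *Tigar* (60.8 CPM, next 102).

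The other muscles were *FRAIL1* muscle 6 for *Mdm4* (5.86 CPM, low), *FRAIL1* muscle 1 for *Aurka* (6.26), Control muscle 5 for *Atf4* (162) and *Glb1* (5.45), Control muscle 4 for *Cdk1* (2.64) and *Timp1* (6.66), and Control muscle 3 for *Tgfb1* (8.34, low).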

How the results depend on the processing

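Of 190 values of the 8 genes under alternative settings, 173 kept their direction and their side of the threshold. *Cdkn2d* was past the threshold in 24 of 24 and *Cdkn1a* in 22 of 24, the exceptions being both fits without the muscles numbered 5. *Ccng1* passed in 4 of 24: with the number as a block (log2 fold change -0.27, adjusted p = 0.0312), with the block and without number 5 (0.0120), in DESeq2's Wald test with the block (0.00242) and in limma voom (0.0458). *Cdkn2a* could not be tested with at least 10 counts in every muscle, nor did DESeq2 with the block give it an adjusted p-value. Of the genes not past the threshold, *Mdm2* changed sign in limma voom (-0.012), and *Cdkn2b* without both muscles numbered 5 (0.077, or 0.074 with the block). With each muscle left out in turn the log2 fold changes ran from -0.184 to 0.022 for *Cdkn2b*, -0.017 to 0.112 for *Cdkn2c*, -0.057 to 0.078 for *Mdm2* and -0.051 to 0.061 for *Mdm4*.

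The number of the 8 genes called was 2 with any muscle left out, 3 with the number as a block and 1 without both muscles numbered 5. Over all genes, 974 calls became 2186 with the number as a block (936 shared), 2232 in DESeq2's Wald test, 2898 in that test with the block, 1756 in limma voom and 2305 with the block and without number 5. Leaving out single muscles gave 364 (without *FRAIL1* muscle 1) to 2110 (without *FRAIL1* muscle 3). The 25 pathway genes became 45 with the block, 45 in DESeq2's Wald test, 58 in that test with the block and 45 with the block and without number 5, and ranged from 11 to 43 with single muscles left out. Among the pathway genes named, the block also changed the call of *Trp53*, *Runx1*, *Cd82*, *Fdxr*, *Pmaip1*, *Aen*, *Ei24* and *Polk*. The causes were not tested.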
